A study of Gallus gallus with 20 samples.

Results

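Potassium and chloride channels are membrane proteins that let these ions cross cell membranes down their gradients. The genes described here are all those of a chicken (Gallus gallus) kidney transcript table whose symbols start with KCN, HCN, CLCN, CLIC or BSND, or with ANO and a digit. The table held 105 such genes among 19650 named genes, on 345 transcript rows. The series, which is titled for somatic piRNAs of the kidney, holds 20 samples. Of these, 19 are small RNA libraries, 14 from kidney of adult birds and 5 from testis of birds aged 12 weeks, and they were not analysed here. The values below describe a single RNA-seq library, of total RNA from adult kidney. Its treatment, sex, breed and number of birds are not in the labels.

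Potassium channels set the membrane voltage of tubule cells, recycle the potassium taken up by the sodium pump and secrete potassium into urine. Chloride channels let reabsorbed chloride leave the cell towards the blood, and in endosomes and lysosomes related exchangers move chloride in trade for protons. Many other members of these families are best known from nerve, heart and muscle, where they shape electrical activity. The roles given below are known mainly from mammals.

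Levels are given as TPM, the share of a transcript in the pool after dividing its reads by its length, scaled to a total of 1000000, so that genes can be set side by side within the library. Detection required a level of 1 TPM and 3 reads or more. Intervals are exact 95% intervals of the reads and cover counting error only, since reads lacking molecular identifiers do not each stand for a separate molecule. With 1 library there is no replicate check, no difference was tested, and fewer cells of a type cannot be told apart from less RNA per cell. The library held 21832272 estimated reads, of which named genes held 64.5% and assembled transcripts of loci without a gene name 25.7%, so a named gene's level can be too low. All levels were 1.55 times higher when rows shorter than 300 bases were left out of the scale. The channel genes drew 104229 reads, 0.477% of the library.

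Most of the measured marker genes of kidney tubules were present at high levels. All 5 measured proximal tubule markers were detected, from 158 to 4055 TPM, as were all 5 distal tubule markers, from 18.5 to 366 TPM, and all 6 collecting duct markers, from 27.3 to 294 TPM. Of the 3 measured thick ascending limb markers, SLC12A1 stood at 250.5 TPM and CLDN10 at 329 TPM, and UMOD had no reads. All 6 smooth muscle markers (1.32 to 56.4 TPM), all 6 endothelial markers (13.5 to 45.2 TPM) and all 6 leukocyte markers (6.83 to 173 TPM) were detected too. The summed level of the smooth muscle, endothelial and leukocyte markers was 112, 169 and 254 TPM. ACTA2 alone held 56.4 TPM of the smooth muscle sum, and CD74 alone 173 TPM of the leukocyte sum. Over all named genes 51.4% were detected. Of 10 neuron markers only SYT1 was detected, at 2.59 TPM (2 markers without short rows in the scale and 3 with annotated length), their summed level was 4.57 TPM, and STMN2 and TH were at 0. Of 8 skeletal and heart muscle markers 3 were detected, led by ACTA1 at 10.2 TPM, their summed level was 24.6 TPM, and MYBPC1 was at 0. The part of these other cell types in the channel levels was not tested.

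A few channel genes stood at high levels in this kidney and most stood at low ones. Of the 105 genes, 41 were detected (39.0%), against 51.4% of all named genes and 70.5% of the genes whose symbol does not start with LOC. The median channel gene stood at 0.558 TPM (order-statistic interval 0.299 to 0.974), the median of all named genes was 1.21 TPM and that of genes with a symbol 6.04 TPM. At or above 10 TPM were 14 channel genes (13.3%), against 27.7% of all named genes and 40.3% of those with a symbol. The 5 highest, the inward rectifiers KCNJ16 and KCNJ15, the intracellular channel proteins CLIC4 and CLIC5 and the 2-pore-domain channel KCNK5, held 75.9% of the summed TPM of all 105. KCNJ16 alone held 34.7%, and the 10 highest held 89.7%.

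**Figure D1:**
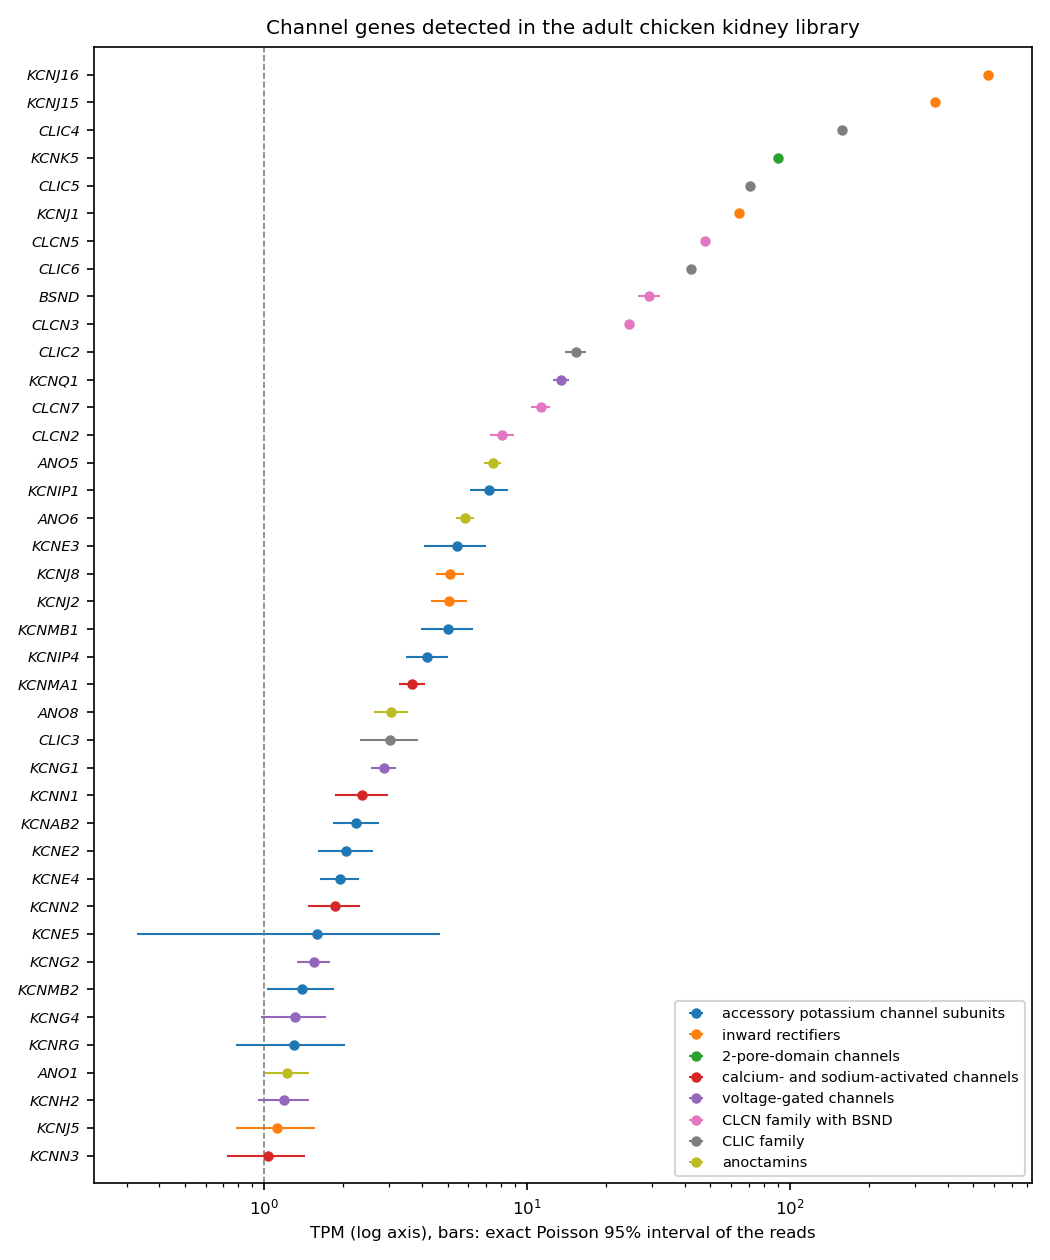
Each point is the level in TPM (log axis) of 1 of 40 of the 41 detected channel genes in the kidney library, coloured by family, and bars are exact Poisson 95% intervals of the reads. KCNJ16 at 570.2 TPM and KCNJ15 at 357 TPM stand at the top, and the intervals widen towards the dashed line at 1 TPM, with that of KCNE5, from 3 reads, the widest.

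Most of the order at the top was separated by more than counting error. For the 15 highest genes, the ratio of each gene to the next had an interval above 1 in all but 1 of 14 steps. From CLCN2, the gene at rank 15, downwards to rank 26, the interval included 1 in 10 of 11 steps, so neighbours in that stretch of the order were not separated at this depth. Part of the order among the 15 highest changed with the most abundant transcript alone. There CLCN5 (28.7 TPM) stood below CLIC6 (42.2 TPM), and KCNQ1 (9.84 TPM) below CLCN7 (11.3 TPM).

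Inward rectifiers pass potassium more easily into the cell than out of it and hold the membrane near the potassium equilibrium. The 14 measured genes of this family held 61.1% of the channel genes' summed TPM, and the family median was 0.272 TPM. Of the 14, 6 were detected (42.9%), against 51.4% of all named genes and 70.5% of those with a symbol. KCNJ16 (Kir5.1), a basolateral subunit that in mammals works in heteromers with KCNJ10 or KCNJ15, stood at 570.2 TPM (565 to 576) from 41023.7 reads. It lay above 99.6% of named genes. Its level was 2.28 times (2.24 to 2.31) that of SLC12A1, the sodium-potassium-chloride cotransporter, a ratio chosen after the values were seen.

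KCNJ15 (Kir4.2), which in mouse is a basolateral channel of the proximal tubule, stood at 357 TPM (350.5 to 363), 0.626 times (0.613 to 0.639) the level of KCNJ16. KCNJ10, the other partner of KCNJ16 in mammals, was not analysed here. KCNJ1 (ROMK), the apical channel through which mammalian thick ascending limb and collecting duct cells recycle and secrete potassium, stood at 64.1 TPM (61.9 to 66.5). That was 0.112 times (0.108 to 0.117) the level of KCNJ16. The transcript of KCNJ1 with a non-coding accession held 18.0% of the gene's TPM.

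KCNJ8 (Kir6.1), the pore of the ATP-sensitive channel of vascular smooth muscle, stood at 5.10 TPM (4.51 to 5.75). KCNJ2 (Kir2.1), a classical strong rectifier, stood at 5.07 TPM (4.32 to 5.92). The smooth muscle and endothelial markers given above were detected in the same library, and their part in these levels was not tested. KCNJ11, the pore of the ATP-sensitive channel of pancreatic beta cells in mammals, had no reads. KCNJ8 stood 47.5-fold above the level that 3 reads would give KCNJ11, a ratio without an interval. The regulatory subunits of these channels showed the same order, with ABCC9 at 6.84 TPM (6.33 to 7.39) and ABCC8 at 0.305 TPM (0.204 to 0.438). ABCC9 was 1.34 times (1.16 to 1.55) KCNJ8, and 0.548 times with the most abundant transcript alone.

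The G protein-gated subunit KCNJ5 was just above the threshold at 1.12 TPM (0.781 to 1.56). The other G protein-gated subunits were lower, with KCNJ9 at 0.121 TPM, KCNJ3 at 0.0952 TPM from 2 reads and KCNJ6 without reads. KCNJ4 stood at 0.361 TPM, KCNJ13, a channel of transporting epithelia, at 0.184 TPM from 6 reads, KCNJ12 at 0.0276 TPM and KCNJ14L at 0.0139 TPM from 1 read. The family thus ran from no reads to the highest level of any channel gene.

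**Figure D2:**
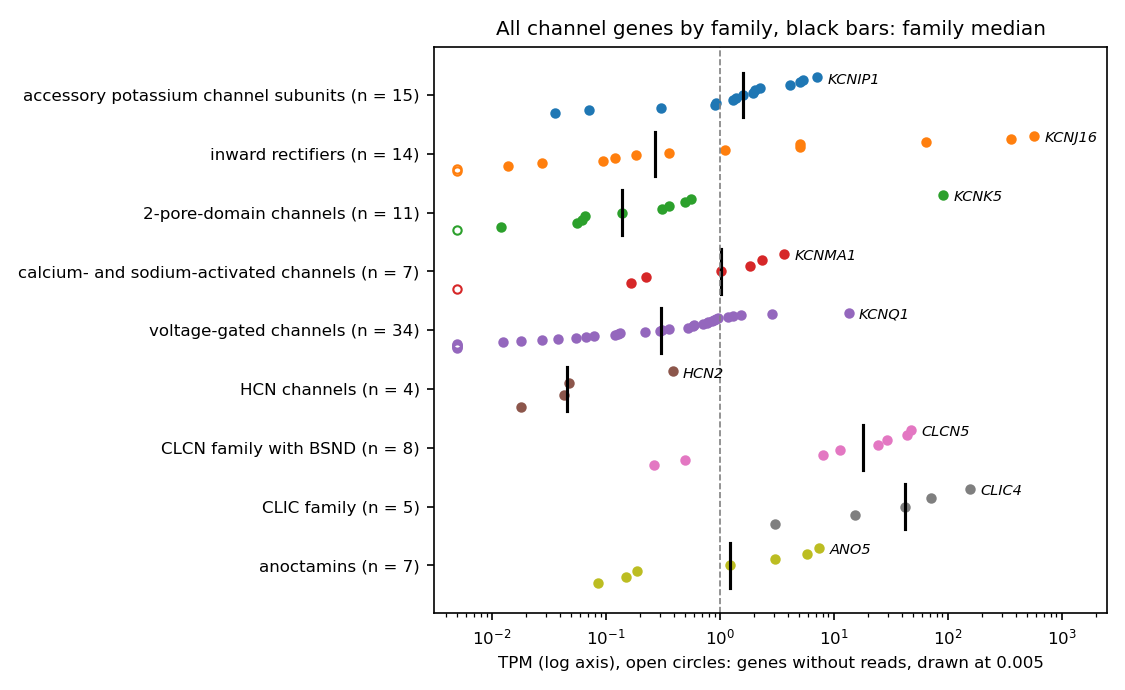
Each point is the level in TPM (log axis) of 1 of the 105 channel genes, in rows by family, black bars are family medians, and the top gene of each family is named. Open circles are the genes without reads, drawn at 0.005 TPM. The inward rectifiers spread from no reads to 570.2 TPM, KCNK5 stands alone at 90.6 TPM in its family, and all 5 CLIC genes lie to the right of the 1 TPM line.

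The 2-pore-domain channels carry background potassium currents. Of 11 measured, only KCNK5 (TASK-2), an alkali-sensitive channel linked to bicarbonate handling in the mouse proximal tubule, was detected, at 90.6 TPM (88.7 to 92.6) from 8226.5 reads. The share detected was 9.09%, against 51.4% of all named genes. The next in the family, KCNK17, stood at 0.558 TPM (0.384 to 0.784) from 33 reads. KCNK12, KCNK13 and KCNK9 stood at 0.493, 0.357 and 0.314 TPM. KCNK16, KCNK15, KCNK10, KCNK3 and KCNK18 had 1 to 9 reads each, at 0.0119 to 0.139 TPM, and the mechanosensitive channel KCNK2 had none. The gap between the first and the second gene of this family was 162-fold (115 to 236).

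Of the 34 voltage-gated potassium channel genes, 5 were detected. KCNQ1, which forms voltage-gated channels in heart and voltage-independent ones in epithelia with different KCNE partners, led them at 13.5 TPM (12.6 to 14.4). The others were KCNG1 at 2.86 TPM, KCNG2 at 1.55 TPM and KCNG4 at 1.31 TPM, which are silent subunits that modify KCNB channels, and KCNH2 at 1.19 TPM, the rapid delayed rectifier of heart. The other 29 stood under 1 TPM, from KCNH1 at 0.974 TPM down to KCNA10, KCNH6, KCNH8, KCNS1 and KCNV2 without reads. KCNQ3 and KCNQ5, relatives of KCNQ1 known from neurons, stood at 0.299 and 0.860 TPM. The voltage-gated count depended on the scale: 12 of the 34 reached 1 TPM when TPM was rescaled without rows shorter than 300 bases, with annotated in place of effective length, or over named gene rows only. The share detected of all named genes kept rose there too, from 51.4% to between 54.6% and 57.3%.

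In the KCNA and KCND groups of voltage-gated channels, the highest partner subunit stood above every measured pore it is known to bind. Of 15 accessory subunit genes, 10 were detected (66.7%), against 51.4% of all named genes and 70.5% of those with a symbol. The family median was 1.595 TPM. KCNIP1 and KCNIP4, calcium-binding partners of the KCND pores, stood at 7.20 TPM (6.08 to 8.47) and 4.18 TPM (3.457 to 5.001). The pores KCND2 and KCND3 stood at 0.921 TPM (0.688 to 1.21) and 0.357 TPM (0.261 to 0.478). KCNIP1 was 7.82 times (5.66 to 10.9) KCND2. In the GRCg7b assembly the span of KCNIP1 overlaps KCNMB1 (5.02 TPM) and that of KCNIP4 overlaps PACRGL (3.86 TPM). The part of reads from these overlaps in the KCNIP levels was not tested.

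KCNAB2, a cytoplasmic beta subunit of the KCNA channels, stood at 2.25 TPM (1.83 to 2.73). Its span in GRCg7b overlaps CHD5 (4.26 TPM) and NPHP4 (4.54 TPM), and their part in its level was not tested. None of the 7 measured KCNA genes was detected, against 51.4% of all named genes and 70.5% of those with a symbol. The highest KCNA gene, KCNA6, stood at 0.790 TPM (0.689 to 0.902), so KCNAB2 was 2.84 times (2.22 to 3.61) KCNA6. This order rests on row length, as KCNA6 had 219 reads on 17709 bases and KCNAB2 101 reads on 3040 bases. KCNA6 passed 1 TPM in the same 3 rescalings that raised the voltage-gated count. The silent subunit KCNG1 was likewise 3.22 times (2.64 to 3.95) the pore KCNB2, which stood at 0.886 TPM, and 2.01 times with the most abundant transcript alone. KCNB2 and KCND2 also passed 1 TPM in those 3 rescalings. These ratios were chosen after the values were seen. KCNIP2, KCNIP3, KCNAB1 and KCNG3 stood at 0.306, 0.0357, 0.0711 and 0.132 TPM, so not every partner was above its pores.

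KCNQ1 showed the other order. KCNE3, the partner that keeps KCNQ1 open in mammalian gut epithelium, stood at 5.43 TPM (4.08 to 6.98), which was 0.402 times (0.300 to 0.522) KCNQ1. KCNE1, the partner of KCNQ1 in heart and, in mouse, in the proximal tubule, stood at 0.918 TPM (0.731 to 1.14), under the threshold of 1 TPM, which it passed in the 3 rescalings. KCNQ1 was 14.7 times (11.7 to 18.7) KCNE1. KCNE3 had 57.4 reads, of which 51.7 lay on a row of 819 bases that held 97.0% of its TPM. KCNE1 had 83 reads on a row of 5914 bases, so the order of KCNE3 and KCNE1 rests on row length. KCNE2 and KCNE4 stood at 2.06 and 1.95 TPM. KCNE5 passed the threshold at 1.595 TPM from only 3 reads on a row of 312 bases, and its interval ran from 0.329 to 4.66 TPM. KCNRG, which in human cells reduces the assembly of KCNA channels, stood at 1.30 TPM from 19 reads. The span of KCNRG in GRCg7b overlaps TRIM13 (10.7 TPM), and the part of TRIM13 in its level was not tested.

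**Figure D3:**
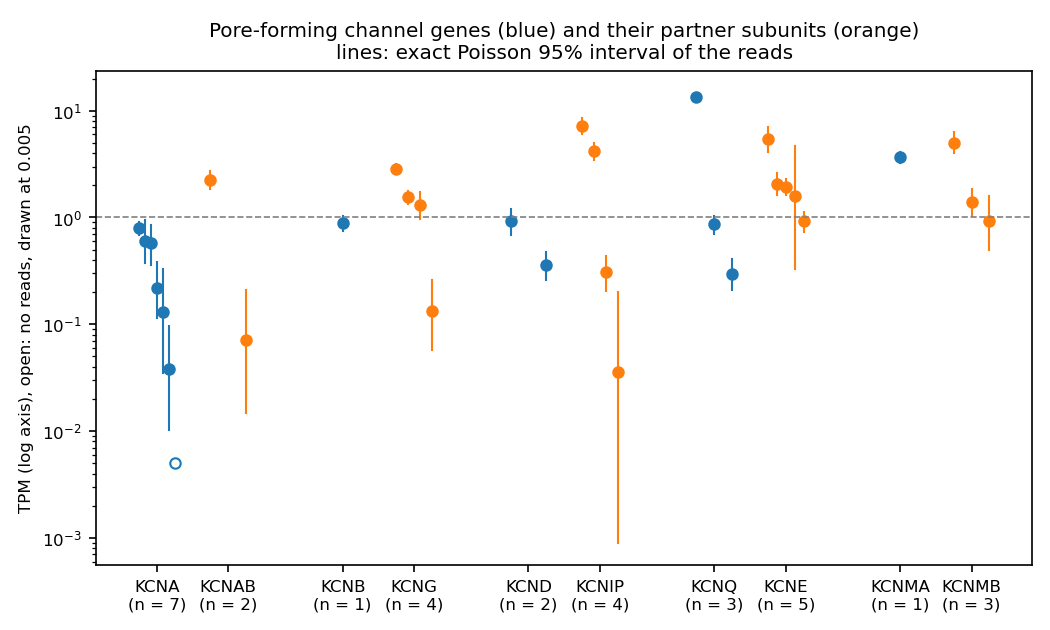
Points are levels in TPM (log axis) of pore-forming potassium channel genes (blue, with the number drawn under each family) and of the subunit families known to bind them (orange), and lines are exact Poisson 95% intervals of the reads. KCNAB2, KCNG1 and KCNIP1 lie above the KCNA, KCNB and KCND pores drawn, whereas KCNQ1 at 13.5 TPM lies above every KCNE gene.

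Of 7 genes grouped by symbol as calcium- and sodium-activated channels, 4 were detected (57.1%). Over all named genes the share was 51.4%, and over those with a symbol 70.5%. KCNMA1 (BK), the large-conductance channel of smooth muscle and of flow-dependent potassium secretion in the mammalian collecting duct, stood at 3.66 TPM (3.27 to 4.08). Its smooth muscle beta subunit KCNMB1 stood at 5.02 TPM (3.98 to 6.26), KCNMB2 at 1.40 TPM and KCNMB4 at 0.924 TPM. KCNMA1 was 3.96 times (2.28 to 7.52) KCNMB4, and 1.30 times with the most abundant transcript alone. The small-conductance channels KCNN1, KCNN2 and KCNN3 stood at 2.37, 1.86 and 1.04 TPM. In GRCg7b the span of KCNN3 overlaps LOC112530288 (0.970 TPM), and the part of that gene in its level was not tested. The sodium-activated channels KCNT1 and KCNT2 stood at 0.224 and 0.167 TPM, and all 38 reads of KCNT2 lay on a row with a non-coding accession. KCNU1, the sperm channel of mammals, had no reads.

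None of the 4 HCN genes, which encode pacemaker channels of heart and brain, was detected, against 51.4% of all named genes. HCN2 stood at 0.386 TPM from 22 reads, and HCN3 and HCN4 had 3 reads each. The reads of HCN3 lay on a row with a non-coding accession.

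The 7 CLCN genes and BSND had a median of 17.9 TPM, above that of each potassium channel family. Of these 8, 6 were detected (75%), against 51.4% of all named genes and 70.5% of those with a symbol. CLCN5, the endosomal chloride-proton exchanger that supports protein uptake through LRP2 in the mammalian proximal tubule, led them at 47.7 TPM (45.9 to 49.5), beside LRP2 at 998 TPM. BSND (barttin), a beta subunit of chloride channels in kidney and inner ear, stood at 29.2 TPM (26.4 to 32.1) from 414 reads. With the most abundant transcript alone CLCN5 stood at 28.7 TPM, below BSND, so its lead depended on the setting.

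Among the other intracellular exchangers, CLCN3 stood at 24.6 TPM (23.6 to 25.7) and CLCN7, the lysosomal member, at 11.3 TPM (10.4 to 12.2). CLCN5 was 1.94 times (1.83 to 2.05) CLCN3, but 1.17 times when only the most abundant transcript of each was counted. CLCN7 was 0.793 times (0.704 to 0.893) OSTM1, its obligate beta subunit, at 14.2 TPM. CLCN4 stood at 0.497 TPM (0.369 to 0.655), and CLCN3 was 49.5 times (37.4 to 66.9) this paralog, a ratio chosen after the values were seen. CLCN2, a hyperpolarization-activated plasma membrane channel, stood at 8.06 TPM (7.26 to 8.92), and CLCN1, the skeletal muscle channel, at 0.267 TPM (0.185 to 0.373).

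CLIC proteins are found both in soluble form and in membranes, and how far they act as channels in cells is debated. All 5 measured CLIC genes passed the detection limit, against 51.4% of all named genes and 70.5% of those with a symbol. The CLIC median was 42.2 TPM, and the CLIC genes held 17.6% of the channel genes' summed TPM. CLIC4 stood at 158 TPM (155 to 161), 2.22 times (2.17 to 2.28) CLIC5 at 70.9 TPM (69.6 to 72.3). CLIC5 is known in mouse from glomerular podocytes and endothelium. CLIC6 stood at 42.2 TPM (40.6 to 43.9), CLIC2 at 15.4 TPM (13.95 to 16.9) and CLIC3 at 3.03 TPM (2.33 to 3.87).

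Anoctamins are calcium-activated chloride channels or lipid scramblases. Of 7 measured, 4 were detected: ANO5, an intracellular member known from muscle and bone, at 7.43 TPM (6.88 to 8.01), the scramblase ANO6 at 5.84 TPM (5.38 to 6.32), ANO8, a tether of the endoplasmic reticulum to the plasma membrane, at 3.05 TPM (2.62 to 3.55) and the chloride channel ANO1 at 1.23 TPM (1.01 to 1.48). ANO6 was 4.76 times (3.87 to 5.90) ANO1, and 2.56 times with the most abundant transcript alone. In GRCg7b the span of ANO8 overlaps GTPBP3 (2.29 TPM) and LOC112530451 (1.00 TPM), and their part in its level was not tested. ANO3, ANO2 and ANO4 stood at 0.187, 0.149 and 0.0853 TPM. The share of anoctamins detected was 57.1%, against 51.4% of all named genes and 70.5% of those with a symbol. The skeletal muscle markers given above stood between 0 and 10.2 TPM beside ANO5, and their part in its level was not tested.

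Each of the 4 highest potassium channel genes lay next to a paralog at a far lower level in the RefSeq order of protein-coding genes. That order, from the GRCg7b assembly, holds 103 of the 105 genes and 10 pairs of channel genes that are direct neighbours. KCNJ16 was 112-fold (96.3 to 132) above its neighbour KCNJ2. KCNJ15 stood 3404-fold above the level that 3 reads would give its neighbour KCNJ6, which had no reads, a ratio without an interval. KCNK5 was 162-fold above KCNK17, and KCNJ1 57.2-fold (41.1 to 82.3) above KCNJ5. These 4 genes were picked for their high levels, and the median channel gene stood at 0.558 TPM. A far lower neighbour was therefore likely beforehand. The comparison of neighbours was not among the planned ones.

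In the other 6 neighbouring pairs the higher gene stood at 7.20 TPM or less. KCNIP1 and KCNMB1 differed 1.43-fold (1.08 to 1.91), and by 1.01-fold with the most abundant transcript alone. In the KCNA groups, all under 1 TPM, KCNA2 and KCNA3 stood at 0.597 and 0.579 TPM, and KCNA10 beside KCNA2 had no reads. KCNA2 stood 5.20-fold above the level that 3 reads would give KCNA10, a ratio without an interval. KCNA6, KCNA1 and KCNA5 stood at 0.790, 0.129 and 0.0377 TPM. KCNK17 was 4.03-fold (1.89 to 9.57) above KCNK16. In the same table the spans of KCNJ1 and KCNJ5 and of KCNIP1 and KCNMB1 overlap, and in each pair the genes lie on opposite strands in the deposited table. Whether the quantification used strand is not given in the sources used here, so reads from the shared stretches of such pairs may not be told apart.

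**Figure D4:**
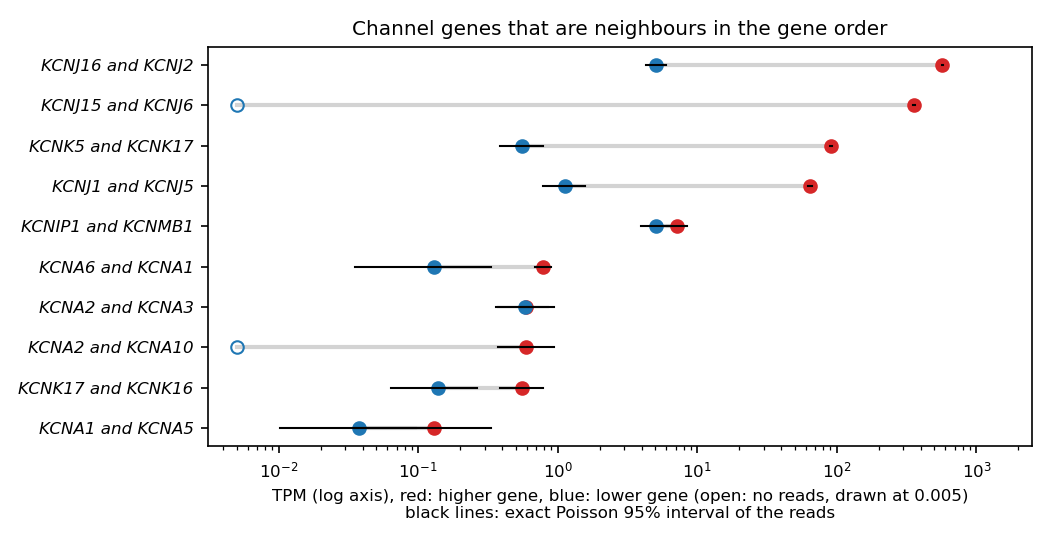
Each line joins the levels in TPM (log axis) of 2 channel genes that are direct neighbours in the RefSeq gene order, the higher in red and the lower in blue, with exact Poisson 95% intervals in black. Open circles mark genes without reads, drawn at 0.005 TPM. In the top 4 lines, which hold KCNJ16, KCNJ15, KCNK5 and KCNJ1, the neighbours lie at least 57.2-fold apart.

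Several genes spread their level over more than 1 transcript. Of the 41 detected genes, 26 had 2 or more rows, and the leading row held a median of 77.9% of the gene's TPM. KCNJ16 divided over rows of 4728, 4775 and 4743 bases, with 58.4%, 32.4% and 9.15% of its TPM. Of the 6 rows of KCNJ15, the row of 2319 bases held 69.4% and that of 2266 bases 23.5%. CLCN5 spread over 5 of its 7 rows, with 60.2%, 27.6% and 9.29% on the first 3. ANO6 was split almost evenly, 51.3% and 48.7%, between rows of 6830 and 6722 bases.

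KCNIP4 and KCNMA1 were the only detected genes whose leading row held less than 50% of the level. KCNIP4 used 9 of 12 rows and its leading row held 23.0%. KCNMA1, known for extensive alternative splicing, had 51 rows, of which 5 drew reads, and those of 3967, 3837 and 8885 bases held 32.7%, 30.9% and 28.4%. Salmon assigns shared reads among rows by estimation, so these shares carry an error that was not measured.

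**Figure D5:**
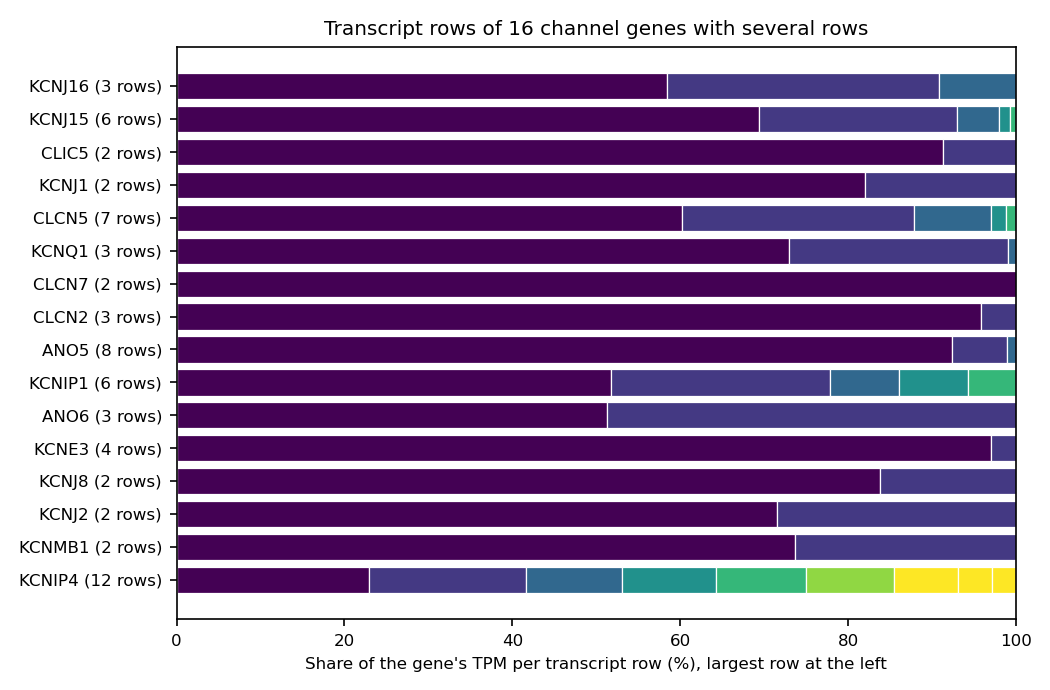
Bars divide the TPM of each of 16 of the highest channel genes with several transcript rows into the shares (percent) of the rows with reads, with the largest at the left. CLCN7 has all its level on 1 of 2 rows, whereas KCNIP1 and ANO6 have little more than 50% on the leading row.

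Near the threshold, detection was not firm. The 5 genes just above 1 TPM were KCNN3 (1.04 TPM), KCNJ5 (1.12 TPM), KCNH2 (1.19 TPM), ANO1 (1.23 TPM) and KCNRG (1.30 TPM). The 5 just under it were KCNH1 (0.974 TPM), KCNMB4 (0.924 TPM), KCND2 (0.921 TPM), KCNE1 (0.918 TPM) and KCNB2 (0.886 TPM). The intervals of 13 genes included 1 TPM, 6 of them called detected and 7 not. Of the 64 genes not detected, 55 had reads, and 20 of these stood under 0.1 TPM. The 9 without reads were KCNA10, KCNH6, KCNH8, KCNJ11, KCNJ6, KCNK2, KCNS1, KCNU1 and KCNV2, for which 3 reads would have been 0.0356 to 0.126 TPM.

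Genes that work with these channels were also measured. The lists below were chosen with earlier results of these data known. For the genes listed for kidney roles a high share was likely beforehand. Over all named genes 51.4% were detected, and 70.5% of those with a symbol. Of 27 listed partners of potassium and chloride transport, 20 had a row and 19 were detected, with a median of 39.4 TPM. The sodium pump subunits FXYD2 and ATP1B1 stood at 2088 and 1328 TPM, the aldosterone-induced kinase SGK1 at 359 TPM and SLC12A1 at 250.5 TPM. WNK2, at 0.908 TPM, was the only one of the 20 under the threshold, and all 20 passed it in the 3 rescalings. Of 20 genes listed as other chloride channels or chloride channel subunits, 13 had a row and 7 were detected, with a median of 3.88 TPM. TTYH3 stood at 27.1 TPM, the volume-regulated channel subunit LRRC8A at 20.7 TPM, CLNS1A at 19.0 TPM and the acid-activated channel TMEM206 at 18.0 TPM. Of 32 channel genes listed for known kidney roles, 24 had a row and 20 were detected, with a median of 12.4 TPM. The other 8, among them KCNJ10, KCNK1, KCNN4, CLCN6, CLIC1, ANO9 and ANO10, were not analysed here.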

How the data were processed

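Transcript abundance was estimated with Salmon on galGal6, per the submitters' processing notes, in a TruSeq library, per the labels' protocols. The version, strand setting and origin of the transcript models are not stated there. The deposited estimated counts are reads that Salmon divided among rows sharing sequence. Sums over rows were not whole, within 0.01 reads, for 21 of the 105 genes, 10 of them among the 11 highest, so some of their reads were shared with rows of other names. The deposited TPM values sum to 1000000 over all 79570 rows, and rows shorter than 300 bases hold 35.4% of them. Annotated and effective lengths stand beside these values in the deposited table.

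TPM and estimated counts were summed per gene, the symbol being the text between accession and strand sign. Exact Poisson intervals of rounded reads were scaled to TPM, ratios have exact conditional binomial intervals, and medians order-statistic intervals. For genes lacking reads, the comparison level was what 3 reads on the shortest row would be in TPM, which is not an interval bound. Gene order came from RefSeq (GRCg7b), where 12 of the detected channel genes overlap another protein-coding gene.

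The rule for named genes took the 25 highest genes, the highest of each family, listed kidney genes, fixed pairs, the 5 genes on each side of the threshold, those without reads and the 4 highest of each other list. A few of the genes named by this rule, with 1 fixed pair, are not reported here. Other genes were named after their values were seen. Members and lists were chosen with earlier results of these data known. The fixed pair of KCNJ16 and KCNJ10 could not be computed. As alternatives, the most abundant transcript, annotated length, TPM without short rows, coding rows, other detection thresholds, genes with at least 3 reads or, chosen after seeing the data, TPM over named gene rows were used. Calls and intervals were tested on counts simulated as Poisson draws around the gene sums. That checks the computation only, not how Salmon divided reads among rows. Python 3.11.15, pandas 2.3.3 and scipy 1.17.1 were used.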

Additional observations from a re-analysis of the deposited data

How the results depend on the processing

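No paired analysis was possible because only 1 library was analysed, and leaving out replicates was not possible for the same reason. The number of detected channel genes, 41, was 22 at a threshold of 5 TPM and stayed within 1.5 times under the other settings. For the changed detection thresholds the share of all named genes was not computed, so those counts have no background beside them. The same 41 genes and 9 more (KCNA6, KCNB2, KCNC1, KCND2, KCNE1, KCNH1, KCNMB4, KCNQ5 and KCNS3) were detected with annotated length, without rows shorter than 300 bases and over named gene rows only. In these settings 12 voltage-gated genes were detected, and TPM was multiplied by 1.68 (median over the 96 channel genes with reads), 1.55 and 1.55. Of all named genes kept, 54.8%, 57.3% and 54.6% were detected there, against 51.4% in the main setting. With the most abundant transcript alone 39 genes were detected, without KCNIP4 and KCNMB2, beside 50.2% of all named genes. The share of the 5 highest genes was 72.5% with the most abundant transcript, 76.3% with annotated length and 76.4% with coding rows only. With the most abundant transcript, the ratio was 0.744 for KCNJ15 to KCNJ16, 0.158 for KCNJ1 to KCNJ16, 10.7 for KCNQ1 to KCNE1, 0.535 for KCNE3 to KCNQ1, 1.17 for CLCN5 to CLCN3, 2.43 for CLIC4 to CLIC5, 2.56 for ANO6 to ANO1 and 1.30 for KCNMA1 to KCNMB4. The ratio of ABCC9 to KCNJ8 turned from 1.34 to 0.548. These differ because that setting counts fewer transcripts. With annotated length the ratio was 0.597 for KCNJ15 to KCNJ16, and with coding rows only 0.0922 for KCNJ1 to KCNJ16. KCNJ16, KCNJ15, CLIC4, KCNK5, CLIC5 and KCNJ1 were the 6 highest, in this order, in each of these settings of transcripts, length and scale. Among genes with at least 3 reads, the median of 88 channel genes was 0.919 TPM and that of all 13432 genes 6.23 TPM. Levels of genes with few reads are limited by depth.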
